A study of Homo sapiens with 6 samples.

Results

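The small leucine-rich proteoglycans (SLRPs) are secreted matrix proteins built around a curved stack of leucine-rich repeats. Most carry chondroitin, dermatan or keratan sulfate chains and sit along collagen fibrils, where they set how collagen molecules pack and how wide a fibril becomes. Several also hold growth factors such as TGF-β in the matrix, and decorin and lumican are common markers of fibroblasts in lung. The members described here are the 10 features whose gene symbol is DCN, BGN, LUM, FMOD, PRELP, ASPN, OGN, OMD, KERA or PODN. All 10 have a row among the 23754 features of the count table, and 6 of them, DCN, BGN, LUM, FMOD, PRELP and PODN, had enough counts to enter the test over 13991 features. The other 4, ASPN, OGN, OMD and KERA, are accounted for by their counts.

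The study asked what loss of ZNF469, a zinc finger protein, does to gene expression in human lung fibroblasts. RNA was sequenced from IMR-90, a fibroblast line from fetal human lung, in 3 DOX– and 3 DOX+ libraries. By the methods and the extraction notes, each library came from cells stably transduced with the Tet-pLKO-puro vector, which carries a hairpin against ZNF469 (sh-2) and puromycin resistance. The DOX+ cells received 2 µg/mL doxycycline to induce the hairpin, and the DOX– cells received none. GEO's labels give the DOX– cells the genotype wild-type and the DOX+ cells the genotype ZNF469-knockdown. Only this hairpin was sequenced, and no library had doxycycline without a hairpin, so effects of the drug, of the hairpin's off-targets and of ZNF469 loss cannot be told apart here. The submitters call the libraries of a group technical replicates, so p-values measure the spread between these libraries, which may be technical. Both groups are bulk RNA, in which fewer cells of a type and less RNA per cell cannot be told apart.

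Library totals were 34057675 to 36120260 counts. ZNF469 itself was at 119 ± 7.25 CPM (counts scaled to library size with TMM factors) in DOX– libraries and at 80.1 ± 0.488 CPM in DOX+ libraries (SD, n = 3 each). The log2 fold change was −0.57 (SE 0.0477, adjusted p = 3.31e-05 by edgeR's quasi-likelihood test), and 67.5% of the transcript remained. Fibroblast markers summed to 54490 to 56210 CPM in DOX– and 46060 to 47660 CPM in DOX+ libraries, with 11 of 12 listed markers tested and MEOX2 at 0. Of these 11, 3 passed the test at an adjusted p under 0.05, all lower, where 0.715% of all features tested were called lower. They were the collagen genes COL1A1, COL1A2 and COL3A1. The other tested markers had log2 fold changes from −0.11 (TCF21) to 0.12 (S100A4) and did not pass. The part of this lower marker sum in the SLRP differences was not tested. The epithelial list summed to at most 0.472 CPM, and SFTPC, SFTPB, NKX2-1, KRT5 and SCGB1A1 were at 0 in all 6 libraries. EPCAM had 13, 11 and 0 counts in DOX– and 14, 12 and 12 counts in DOX+ replicates. CDH1 had 3, 4 and 0 counts in DOX– and 0 in all DOX+ replicates. The endothelial list summed to 20.2 to 24.1 CPM in DOX– and 20.5 to 23.9 CPM in DOX+ libraries, nearly all of it TEK. On average TEK was at 20.9 CPM in DOX– and 21.1 CPM in DOX+ libraries, and VWF at 0.520 and 0.585 CPM. PECAM1, CDH5 and EMCN were at 0. The immune list summed to 60.8 to 66.8 CPM in DOX– and 59.2 to 65.4 CPM in DOX+ libraries, nearly all of it CD68, with LYZ, CD3E and TYROBP at 0. The smooth muscle and pericyte list summed to 977 to 1052 CPM in DOX– and 975 to 1037 CPM in DOX+ libraries.

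In these fibroblasts the family was mostly decorin, and decorin and lumican were modestly lower in DOX+ cells. DCN fell to 88.0% and LUM to 86.1% of their DOX– level, and LUM missed the threshold in 5 of 6 fits with a library removed. BGN, FMOD, PODN and PRELP did not pass the test, and no member was called higher. So 2 of the 6 tested members were called lower at a false discovery rate (FDR) under 0.05 by edgeR's quasi-likelihood test, against 0.715% of all features tested. Of the 6 members 0 were called higher, where 0.4% of all features were, and 1.12% of features were called in either direction. At an unadjusted p under 0.05 by the same test, 0 members were higher and 2 were lower, against 7.31% and 7.69% of all features. DESeq2 called 2 members lower, against 2.85% of the 9379 features with an adjusted p, and 0 higher, where 260 features were. It gave no adjusted p for FMOD and PRELP. The median log2 fold change of the 6 was 0.03, beside −0.0019 over all features, with 4 members above 0 and 2 below. Groups did not overlap for 3 of the 6, against 20.3% of all features tested.

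Levels of different genes were compared in FPKM, the deposited values per length of transcript. In DOX– libraries the order was DCN, BGN, LUM, PODN, FMOD and PRELP, and over all 6 libraries the ranges of neighbours in this order did not meet. DCN had 511 ± 52.4 FPKM (SD, n = 3), which put it at rank 103 of 23754 features. BGN followed with 103 ± 3.31 FPKM at rank 570, and LUM with 31.2 ± 1.47 FPKM at rank 1989. PODN and FMOD were far lower, at 4.69 ± 0.277 and 1.76 ± 0.0751 FPKM. PRELP was at 0.198 ± 0.0303 FPKM. ASPN averaged 0.00682 FPKM and was listed at 0 in 2 of the 3 DOX– libraries, so its place above OGN, OMD and KERA, all listed at 0, lies within its own spread. For scale, COL1A1, the main chain of type I collagen, had 2077 FPKM at rank 13.

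**Figure D1:**
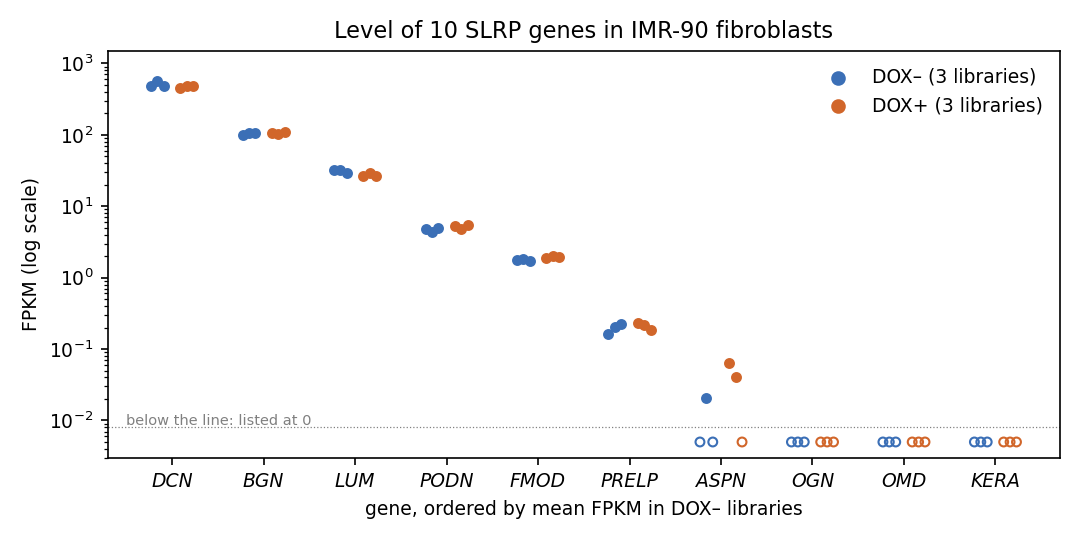
Level of the 10 SLRP genes in each library, in FPKM on a log axis, with genes ordered by their DOX– mean and open circles under the dotted line for values listed at 0. DCN stands near 511 FPKM in DOX– libraries, PRELP near 0.198 FPKM, and OGN, OMD and KERA are at 0 in all 6 libraries.

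Counts on the 10 genes made up 0.203 ± 0.00701% of all counts in DOX– libraries and 0.185 ± 0.00122% in DOX+ libraries (SD, n = 3 each). DCN gave 80.3 ± 0.715% of these counts in DOX– and 78.7 ± 0.581% in DOX+ libraries. BGN gave 13.4 ± 0.730% and 15.0 ± 0.720%, and LUM 5.11 ± 0.111% and 4.90 ± 0.250%. Together DCN, BGN and LUM held 98.8% and 98.6%, so the family total follows DCN closely and is no separate result.

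The members differ in the sequence just upstream of their starts. RefSeq promoters of GRCh38.p14 matched 6 of the 10 members by symbol, namely BGN, FMOD, PRELP, ASPN, OGN and PODN. DCN, LUM, OMD and KERA had no entry. Shown are the 250 bases before the start of an abundant member (BGN), a scarce one (PRELP) and one hardly detected (ASPN), which were chosen because they end where the gene starts in GENCODE. The windows lie at chrX:153494730-153494979 on the plus strand, chr1:203475556-203475805 on the plus strand and chr9:92482507-92482756 on the minus strand. Capitals mark matches on either strand to the TATA box letters TATAAA, the CAAT box letters CCAAT and the GC box letters GGGCGG.
BGN: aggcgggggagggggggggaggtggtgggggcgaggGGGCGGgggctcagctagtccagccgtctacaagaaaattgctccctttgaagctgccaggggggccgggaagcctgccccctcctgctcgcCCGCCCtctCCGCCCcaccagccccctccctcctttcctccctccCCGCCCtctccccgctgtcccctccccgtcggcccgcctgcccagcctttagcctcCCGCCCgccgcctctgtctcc
PRELP: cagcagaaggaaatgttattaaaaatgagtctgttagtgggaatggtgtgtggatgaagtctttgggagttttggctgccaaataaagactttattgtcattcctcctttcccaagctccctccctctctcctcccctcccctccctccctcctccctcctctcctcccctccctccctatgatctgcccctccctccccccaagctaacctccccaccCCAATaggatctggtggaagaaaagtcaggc
ASPN: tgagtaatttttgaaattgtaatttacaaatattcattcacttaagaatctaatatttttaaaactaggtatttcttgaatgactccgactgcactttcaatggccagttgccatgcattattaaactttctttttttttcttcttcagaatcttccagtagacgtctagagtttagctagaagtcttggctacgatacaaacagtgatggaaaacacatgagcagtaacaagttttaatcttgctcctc

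The BGN window was 74% G or C, more than in 87.7% of 35116 RefSeq promoters, and held 16 CpG and 5 matches to GGGCGG. The PRELP window was 52.8% G or C with 0 CpG and a single CCAAT. The ASPN window was 32.4% G or C, with 3 CpG and none of the 3 motifs. Of all promoters, 10.7% held TATAAA, 32.0% CCAAT and 42.6% GGGCGG in windows of the same length, with a median of 58% G or C and 11 CpG. The motifs searched do not overlap one another. The PODN window, at 72.4% G or C with 23 CpG, resembled that of BGN, and the FMOD window had 51.6% G or C, 1 TATAAA, 1 CCAAT and 2 GGGCGG. The OGN windows of 2 starts had 36% and 31.2% G or C, and they overlap and share the same 1 TATAAA. Whether a window bears on the level of its gene was not tested.

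DCN and BGN belong to class I of the family, and both carry chondroitin or dermatan sulfate. DCN (ENSG00000011465) lies on the minus strand of chromosome 12 at 91140484 to 91183217 of GRCh38. It encodes decorin, which binds type I collagen, limits the sideways growth of fibrils and binds TGF-β. Its level was 1645, 1699 and 1575 CPM in DOX– replicates 1, 2 and 3 and 1455, 1448.5 and 1426 CPM in DOX+ replicates 1, 2 and 3. All 3 DOX+ libraries were below all 3 DOX– libraries, and they lay closer together. The means were 1639.5 ± 62.3 and 1443 ± 15.1 CPM (SD, n = 3 each). DCN fell by 0.18 on the log2 scale (SE 0.0281, adjusted p = 0.00557 by edgeR's quasi-likelihood test), with a 95% interval of 84.4% to 91.8% of the DOX– level. The two-sided exact permutation p was 0.1, the smallest that 3 libraries against 3 allow. Without DOX– replicate 1 the adjusted p of the edgeR test was 0.0529, at a log2 fold change of −0.18. Over 17 alternatives the adjusted p ran from 1e-06 to 0.519 and passed 0.05 in 15.

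The deposited FPKM values of DCN gave a smaller difference. They were 474, 571 and 487 in DOX– and 455, 486 and 475 in DOX+ libraries, so that the groups overlapped and DOX– replicate 2 stood highest. The log2 difference on the log2(FPKM + 0.1) scale was −0.11, with an adjusted p of 0.519 by limma. Over all features tested the median difference was 0.029 in this fit, beside −0.0019 in the edgeR fit of counts. Dividing CPM by FPKM gives the transcript length that the deposited FPKM imply, which for DCN ran from 2.96 to 3.45 kb in DOX– and from 3.01 to 3.21 kb in DOX+ libraries. For BGN, LUM, PODN and FMOD the same quantity varied less, from 2.61 to 2.66 kb in BGN and from 3.27 to 3.34 kb in LUM. The canonical GENCODE transcript of DCN is 6.85 kb long.

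BGN (ENSG00000182492, chromosome X, 153494980 to 153509546, plus strand) encodes biglycan, the close relative of decorin, which binds collagen and, when released from matrix, Toll-like receptors. Its level was 262, 278 and 282 CPM in DOX– replicates and 277, 263 and 289 CPM in DOX+ replicates. The groups overlapped almost fully, at means of 274 ± 10.8 and 276 ± 13.0 CPM (SD, n = 3 each). The log2 fold change was 0.01 with a 95% interval of −0.08 to 0.10 (adjusted p = 0.938 by edgeR's quasi-likelihood test). The interval corresponds to 94.5% to 107% of the DOX– level. The sign of this value turned to −0.02 without DOX– replicate 1 and to −0.022 without DOX+ replicate 3.

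ASPN (ENSG00000106819, chromosome 9, 92456205 to 92482506, minus strand) encodes asporin, a class I member that carries no glycosaminoglycan chain and binds TGF-β. It had 0, 2 and 0 counts in DOX– replicates and 7, 5 and 0 counts in DOX+ replicates. The DOX+ group included both the highest count and a 0, so the groups overlapped, and the gene was not tested. The sums of 2 and 12 counts give a ratio of 5.81 with a 95% exact counting interval of 1.29 to 53.4, which covers counting error only. ASPN, OGN and OMD lie inside CENPP, a centromere protein gene on the opposite strand with 336 to 494 counts per library. Whether the counting used strand is not given in the sources used here, so reads of CENPP and of these genes cannot be told apart.

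LUM, FMOD, KERA, OMD and PRELP form class II, several of which carry keratan sulfate. LUM (ENSG00000139329, chromosome 12, 91102629 to 91111494, minus strand) encodes lumican, which binds fibrillar collagen and regulates fibril diameter. Its level was 107, 106 and 99.9 CPM in DOX– replicates and 87.8, 94.9 and 86.9 CPM in DOX+ replicates. No DOX+ library reached the lowest DOX– library, and DOX+ replicate 2 came nearest to it. The means were 104 ± 3.83 and 89.9 ± 4.43 CPM (SD, n = 3 each). LUM fell by 0.22 on the log2 scale (SE 0.0474, 95% interval −0.32 to −0.11), and its adjusted p of 0.0499 by edgeR's quasi-likelihood test was just under the threshold. The two-sided exact permutation p was again 0.1. The call was lost without DOX– replicate 1, 2 or 3 and without DOX+ replicate 1 or 3, with edgeR adjusted p-values of 0.0654 to 0.205. Over 17 alternatives LUM passed an adjusted p of 0.05 in 7, within a range of 0.000159 to 0.272, and its log2 fold change was below 0 in all of them.

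FMOD (ENSG00000122176, chromosome 1, 203340628 to 203351758, minus strand) encodes fibromodulin, which shares a collagen binding site with lumican. It was at 6.50, 6.74 and 6.28 CPM in DOX– and 6.78, 7.08 and 7.07 CPM in DOX+ replicates. The groups did not overlap, with DOX+ the higher by a narrow gap. The log2 fold change was 0.10 (95% interval −0.14 to 0.34, adjusted p = 0.718 by edgeR's quasi-likelihood test). The spread of 3.53% between DOX– libraries was below the 6.66% that counting alone gives at 219 to 237 counts.

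PRELP (ENSG00000188783, chromosome 1, 203475806 to 203491352, plus strand) encodes a member with an arginine- and proline-rich end that binds heparan sulfate. Its counts were only 36, 46 and 51 in DOX– and 52, 48 and 42 in DOX+ replicates. The groups overlapped, and the log2 fold change of 0.05 had a wide 95% interval of −0.49 to 0.59 (adjusted p = 0.948 by edgeR's quasi-likelihood test). The interval corresponds to 71.1% to 151% of the DOX– level, so a change of the size seen in DCN was not detectable at this depth. Its sign turned to −0.065 without DOX– replicate 1 and to −0.02 without DOX+ replicate 1.

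KERA (keratocan, best known from the cornea), OMD (osteomodulin, of bone) and OGN (osteoglycin, a class III member) had 0 counts in all 6 libraries. A count of 0 allows up to 3 counts, or 0.0828 to 0.0886 CPM in these libraries. PODN (ENSG00000174348, chromosome 1, 53062052 to 53085501, plus strand) encodes podocan, of a later described class. It was at 16.2, 14.7 and 16.7 CPM in DOX– and 17.2, 15.3 and 17.8 CPM in DOX+ replicates. The groups overlapped, at a log2 fold change of 0.09 (95% interval −0.10 to 0.27, adjusted p = 0.684 by edgeR's quasi-likelihood test). It was 0.035 without DOX– replicate 2, 0.042 without DOX+ replicate 3 and 0.147 without DOX+ replicate 2, and passed in none of these fits.

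**Figure D2:**
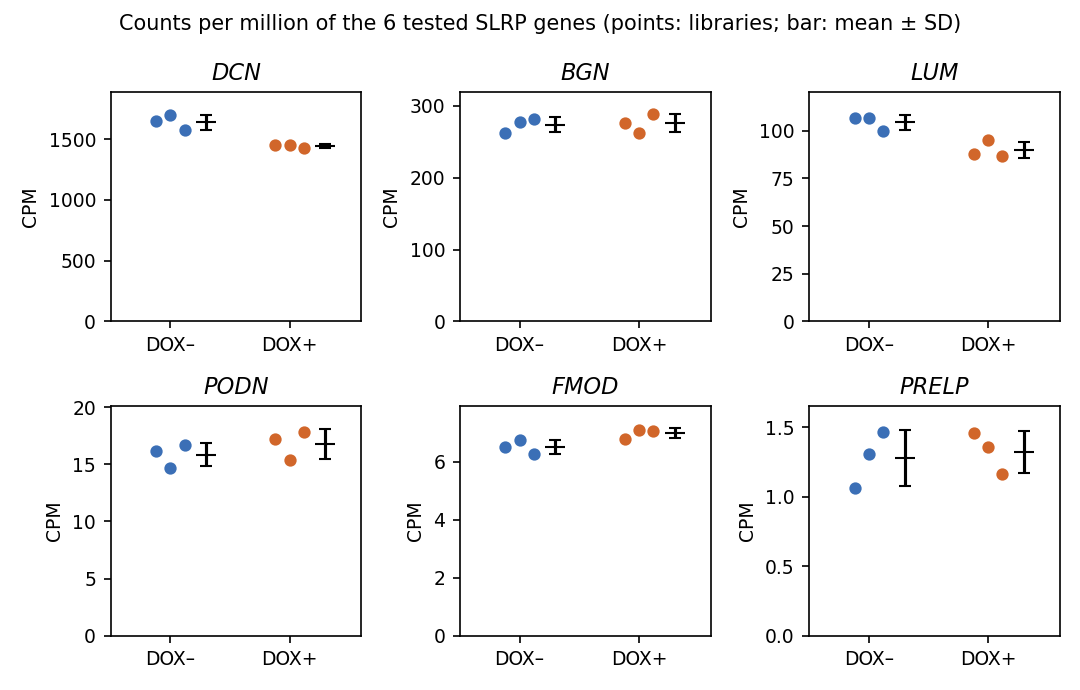
TMM-scaled CPM of the 6 tested SLRP genes in each library, on a linear axis from 0, with points for libraries and bars for the mean ± SD of 3. DCN and LUM sit lower in all DOX+ libraries, at 1443 against 1639.5 CPM and 89.9 against 104 CPM, while the BGN, PODN and PRELP groups overlap.

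**Figure D3:**
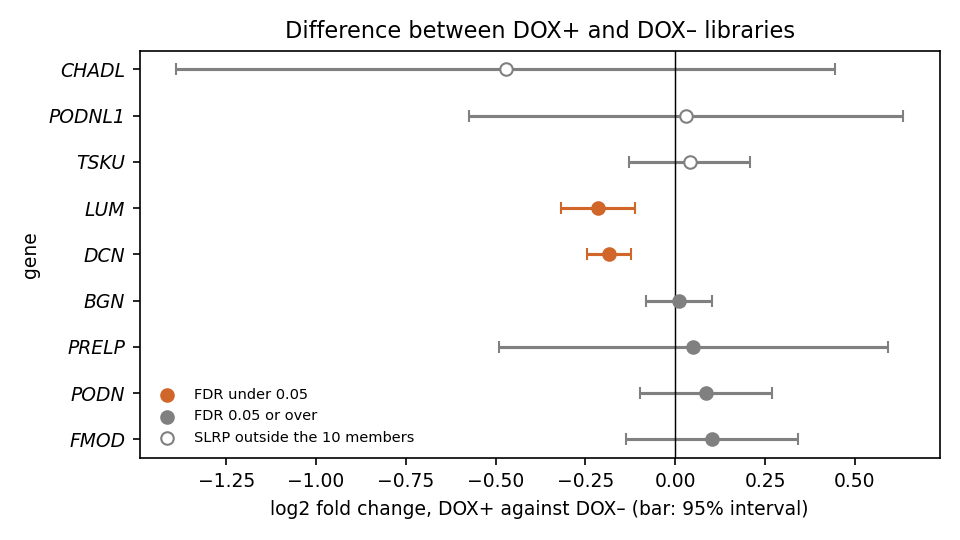
Log2 fold change of DOX+ against DOX– for the 6 tested SLRP genes and, as open circles, 3 tested SLRPs outside the list, with 95% intervals from edgeR's quasi-likelihood fit. The intervals of DCN (−0.24 to −0.12) and LUM (−0.32 to −0.11) lie below 0, and those of the other genes cross 0.

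Several members lie in clusters. On chromosome 12 the gaps from EPYC to KERA, KERA to LUM and LUM to DCN were 45.5, 44.6 and 29.0 kb. LUM and DCN were abundant there and both fell, while KERA had 0 counts and EPYC, epiphycan of cartilage, had 2 counts in all. On chromosome 9, OGN, OMD and ASPN lie within gaps of 7.68 and 31.7 kb, and all 3 were at 0 or hardly counted. On chromosome 1, FMOD and PRELP are 124 kb apart and both were low.

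Ratios within a library, which no scaling of the libraries changes, were taken for 4 pairs. The log2 ratio of LUM to DCN was −3.97 ± 0.0261 in DOX– and −4.01 ± 0.0657 in DOX+ libraries (SD, n = 3 each), a difference of −0.03 (two-sided exact permutation p = 0.5, adjusted p = 0.5 over the 4 pairs). The groups overlapped, so the fall of DCN was not shown to differ from that of LUM. The log2 ratio of BGN to DCN was −2.65, −2.61 and −2.48 in DOX– and −2.40, −2.46 and −2.30 in DOX+ replicates. All DOX+ values were the higher, by 0.19 on average (exact permutation p = 0.1, adjusted p = 0.133), and by 0.15 to 0.24 with each library left out.

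The SLRP counts were also set against those of COL1A1, the main chain of the fibrils that decorin and lumican coat. Per 100 COL1A1 counts there were 10.5, 11.3 and 9.94 DCN counts in DOX– and 14.9, 15.6 and 14.6 in DOX+ replicates. LUM went from 0.674 ± 0.0387 to 0.937 ± 0.0740 and BGN from 1.77 ± 0.0845 to 2.87 ± 0.0789 counts per 100 COL1A1 counts (SD, n = 3 each). The groups did not overlap for any of these genes. The log2 ratio of DCN to COL1A1 was 0.51 higher in DOX+ and that of LUM to COL1A1 0.47 higher (exact permutation p = 0.1 for each, adjusted p = 0.133 over the 4 pairs). These ratios follow COL1A1, which fell by 0.69 on the log2 scale, from 15509 ± 401 to 9609.9 ± 277 CPM (SD, n = 3 each).

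**Figure D4:**
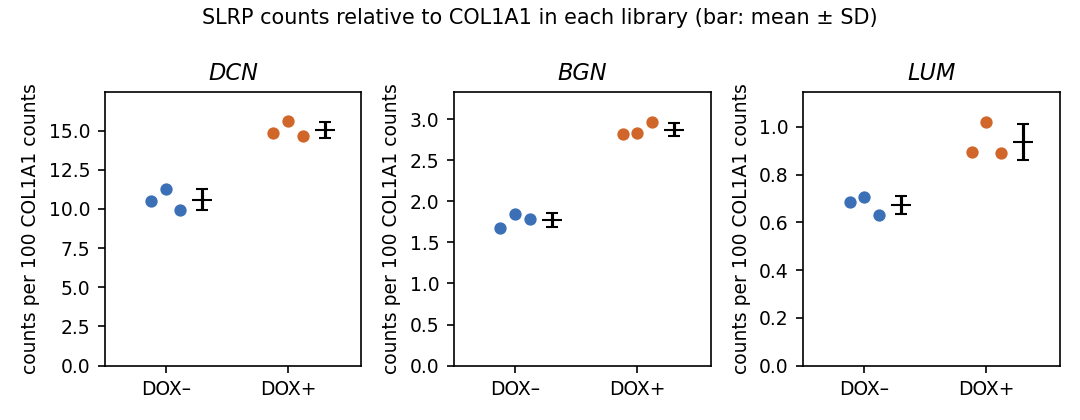
DCN, BGN and LUM counts per 100 COL1A1 counts in each library, on linear axes from 0, with bars for the mean ± SD of 3. DOX+ libraries lie above DOX– libraries for each gene, at 15.0 against 10.6 for DCN.

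Of 14 listed collagen chains that SLRPs bind, 13 were tested, and 6 were called lower by edgeR's quasi-likelihood test and 0 higher, at a median log2 fold change of −0.12. Of all features tested, 0.715% were called lower and 0.4% higher. Besides COL1A1 the called chains were COL1A2 (log2 fold change −0.50), COL3A1 (−0.50), COL5A2 (−0.34), COL6A1 (−0.21) and COL6A3 (−0.12). The last 2 are chains of the beaded filaments that decorin and biglycan bind.

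The sugar chains of the family are built by enzymes of the Golgi. Of 27 enzymes, transporters and sulfate donors for the linker and for chondroitin and dermatan sulfate, 25 were tested, and 1 was called higher and 0 lower by edgeR, at a median log2 fold change of 0.06, where 0.4% of all features were called higher. That gene was XYLT1, the xylosyltransferase that starts the chain on the core protein. It was at 127 ± 0.768 CPM in DOX– and 151 ± 2.55 CPM in DOX+ libraries (SD, n = 3 each), a log2 fold change of 0.25 (SE 0.0369, adjusted p = 0.00524 by edgeR's quasi-likelihood test). The most abundant members of the list, the chondroitin polymerizing factors CHPF and CHPF2, had log2 fold changes of 0.08 and −0.01 and did not pass. Of 13 keratan sulfate genes 8 were tested, at a median log2 fold change of 0.06, and 0 passed, where 1.12% of all features did. The galactosyltransferases B4GALT1 and B4GALT4 were the most abundant of these, at 0.06 and −0.11.

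A list of 28 genes, mostly growth factors and receptors that SLRPs bind or signal through, had 21 tested members. It also holds WASF1, an actin regulator inside the cell that is neither. Of the 21, 1 was called higher and 1 lower by edgeR, at a median log2 fold change of −0.03, against 0.4% and 0.715% of all features. ITGA2, the α2 integrin chain of a collagen receptor, fell from 148 ± 0.487 to 118 ± 6.81 CPM (SD, n = 3 each), a log2 fold change of −0.33 (adjusted p = 0.00269 by edgeR's quasi-likelihood test). FGF2, a growth factor, went from 83.1 ± 3.43 to 95.4 ± 1.93 CPM, a log2 fold change of 0.20 that was close to the threshold (adjusted p = 0.0493 by the same edgeR test). The most abundant, ITGB1 and CCN2 (connective tissue growth factor), did not pass, at 0.09 and 0.01. A list of 17 genes for matrix proteinases includes the proteinase enhancer PCOLCE. Of these genes 11 were tested and 0 passed, where 1.12% of all features did. The matrix metalloproteinases MMP14 and MMP2 were the most abundant, with log2 fold changes of −0.04 and −0.07.

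Of 7 further SLRPs outside the list, 3 were tested and 0 passed edgeR's test, where 1.12% of all features did. TSKU (tsukushi) had a log2 fold change of 0.04 (95% interval −0.13 to 0.21), PODNL1 one of 0.03 (−0.57 to 0.63) and CHADL one of −0.47 (−1.39 to 0.45). CHAD, chondroadherin of cartilage, had 8, 0 and 9 counts in DOX– and 0, 3 and 1 in DOX+ replicates. OPTC had 1 count in all and NYX had 0.

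TSKU was the SLRP whose deposited FPKM and counts differed most. Its level was 15.7, 17.2 and 15.2 CPM in DOX– and 16.6, 16.8 and 15.99 CPM in DOX+ replicates, and these groups overlapped. In FPKM it stood at 7.51, 8.56 and 7.12 in DOX– and at 5.81, 6.61 and 5.69 in DOX+ replicates, and these groups did not. The log2 ratio of the group means was 0.04 in CPM and −0.36 in FPKM. The transcript length implied by its FPKM was 2.06 kb in DOX– and 2.76 kb in DOX+ libraries. Opposite signs with FPKM groups that did not overlap occurred in 33 of 13988 tested features (0.236%), and among SLRPs in TSKU alone of the 9 tested.

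**Figure D5:**
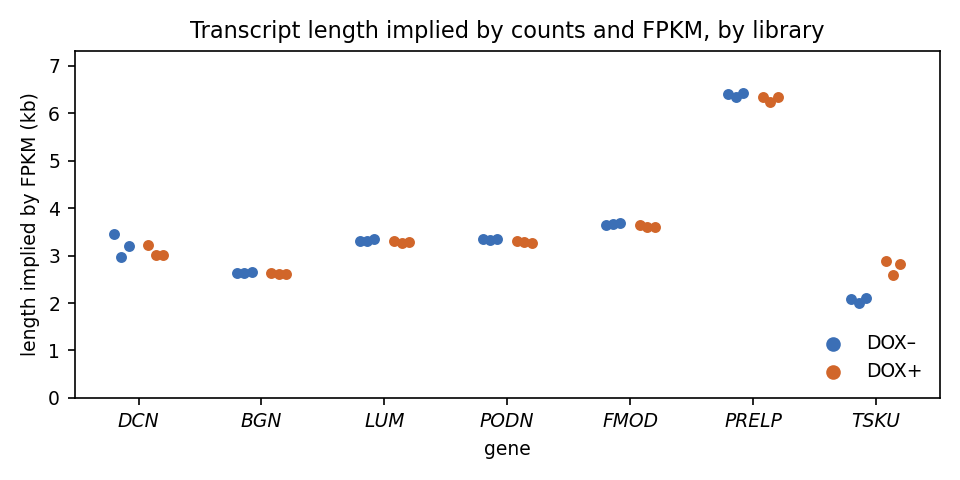
Transcript length in kb implied by dividing CPM by FPKM, per library, for the 6 tested SLRP genes and TSKU, on an axis from 0. TSKU is at 2.06 kb in DOX– and 2.76 kb in DOX+ libraries on average, and the DOX– libraries of DCN spread from 2.96 to 3.45 kb.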

How the data were processed

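Poly(A)-selected RNA of 6 IMR-90 libraries, 3 DOX– and 3 DOX+, was sequenced in read pairs of 150 bp. The study's methods state that quality-filtered reads were aligned to GRCh38 with HISAT2 and StringTie. Tool versions, the annotation and the counting step are not given in the sources used here. The authors deposited whole-number counts per gene without normalization, and FPKM values, which the authors scaled by transcript length and depth. The deposited table also holds comparisons made by the authors, which were not used. Sample titles gave the groups and replicate numbers. The table had 23754 features, of which 3780 are unannotated loci that took 0.938% to 0.996% of counts, and 17 stray lines without values were dropped.

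The members and gene lists were chosen with earlier results of these data known. Counts were fitted over the whole table with edgeR 4.0.16 in R 4.3.3: filterByExpr with a minimum count of 10, TMM scaling (factors 0.988 to 1.01), the quasi-likelihood test with no covariate, and p-values adjusted over 13991 features by Benjamini-Hochberg, with calls at an FDR under 0.05. The standard error was taken as the size of the log2 fold change over the root of F. FPKM was tested with limma 3.58.1 on log2(FPKM + 0.1), which understates changes of low genes. Ratios were tested by two-sided exact permutation in SciPy 1.17.1. Alternatives were other scalings and filters (none, or 50 counts in 3 libraries), DESeq2 1.42.0, limma-voom, an FDR under 0.01, leaving out each library, a replicate block, and removal of lowess trends with span 0.3 on length or GC of GENCODE 44 transcripts. Within groups, the chi-square of library pairs over its degrees of freedom was 4.53 to 8.31, above counting noise, so none is a copy of another. The named genes are ZNF469, the 10 members and the 7 other SLRPs. Further lists other than the marker lists gave up to 6 members under an FDR of 0.05 and the 2 with the highest DOX– FPKM. CENPP, which overlaps members, was named after its values were seen. Marker genes were reported as summed CPM, and their members at 0 and some others were named outside the rule for named genes.

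The edgeR script was tested on 5 simulated tables of 13836 to 13875 features with 200 changed genes each. It called 21.6% of genes simulated at an absolute log2 fold change of 0.2, 69.3% at 0.5 and 90.3% at 1. Of all calls 4.52% were false. Changed genes were not drawn from those with the fewest counts, and each gene's spread was set by the dispersion trend alone. Library totals of 34057675 to 36120260 counts make counting error small for DCN, BGN and LUM and limiting for PRELP and ASPN. Intervals on counts cover counting error only.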

Additional observations from a re-analysis of the deposited data

How the results depend on the processing

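DCN and LUM kept their lower level in DOX+ under every alternative run, and the number of SLRPs called higher was 0 in all. DCN ran from −0.21 to −0.16 on the log2 scale with each library left out, and with FPKM in place of counts it was −0.11 and no longer past the threshold. With the GC trend removed the differences were larger, at −0.25 for DCN and −0.31 for LUM. LUM ran from −0.26 to −0.19 with each library left out and missed the threshold in 5 of those 6 fits. It also missed it with library size scaling (−0.20), upper quartile scaling (−0.21), DESeq2's size factors (−0.21), the length trend removed (−0.20), FPKM (−0.18) and an FDR under 0.01 (−0.22). The number of SLRPs called lower was 1 rather than 2 with library size scaling, upper quartile scaling, DESeq2's size factors, the length trend removed and an FDR under 0.01, and 0 to 2 with each library left out. DESeq2's own test called both, among 2.85% of the features it gave an adjusted p. BGN ran from −0.022 to 0.046 and PRELP from −0.065 to 0.16 with each library left out. They turned sign to −0.02 (BGN without DOX– replicate 1), −0.022 (BGN without DOX+ replicate 3), −0.065 (PRELP without DOX– replicate 1) and −0.02 (PRELP without DOX+ replicate 1). The cause was not tested.

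Over all features, 56 genes were called higher and 100 lower. Higher calls numbered 88 with library size scaling, 127 without a filter, 260 with DESeq2, 127 with the GC trend removed, 19 at an FDR under 0.01 and 20 to 69 with each library left out. Lower calls numbered 163 without a filter, 267 with DESeq2, 163 with the GC trend removed, 54 at an FDR under 0.01 and 54 to 92 with each library left out. Higher genes were 35.9% of calls, and 53.3% with library size scaling and 49.3% with DESeq2. Replicate numbers did not pair the libraries (correlation of same-numbered deviations −0.0352 to 0.0363), and a replicate block gave 135 higher and 157 lower and still called 2 SLRPs lower.

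DESeq2 gave no adjusted p for FMOD and PRELP, and PRELP did not reach the filter of 50 counts. In simulation 21.6% of genes with an absolute log2 fold change of 0.2 were called. That share pools levels of abundance and leaves out the genes with the fewest counts, which were not drawn as changed.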

Other observations

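Spread between libraries differed from counting error by gene. For DCN the coefficient of variation between DOX– libraries was 3.80%, where counting alone gives 0.420%, and between DOX+ libraries it was 1.04%, where counting gives 0.440%. For BGN the DOX– value was 3.92% against 1.03% from counting, and for LUM 3.67% against 1.66%. For PRELP it was 15.8% against 15.0%.

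ECM2, a matrix gene with leucine-rich repeats 11.0 kb from ASPN, was looked at after its values were seen, because it also lies inside CENPP. It had 9, 14 and 21 counts in DOX– and 17, 16 and 23 counts in DOX+ replicates, at a log2 fold change of 0.30 (95% interval −0.63 to 1.23, adjusted p = 0.794 by edgeR's quasi-likelihood test). CENPP itself had a log2 fold change of 0.03 (95% interval −0.26 to 0.32).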
